A study of Homo sapiens with 6 samples.

Results

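The mitochondrial genome of U251 cells, an established human glioma cell line, was followed through the 37 features whose Ensembl identifier maps to a gene symbol that starts with MT-. They are 13 mRNAs, 2 rRNAs and 22 tRNAs, out of 61496 features in the deposited table, and all lie on chromosome M. Of the 37, 28 are annotated on the plus strand of the reference, the RNAs copied from the heavy strand of the DNA, and 9 on the minus strand, the RNAs copied from the light strand. The light-strand group holds MT-ND6 and 8 tRNAs. The study compared 3 libraries of untreated cells (control) with 3 libraries of cells exposed for 2 h to the gas sevoflurane (Sev), a volatile anesthetic. All cells were grown in the same serum-containing medium, and no transgene or knockdown is named for any of these libraries. The labels list exposures of 1.7%, 3.4% and 5.1% without assigning them to single libraries, so the concentration behind the Sev libraries rests on the study's text, which names the highest. U251 is a single line, and nothing in the labels says whether the 3 libraries of a group came from separate cultures, so p-values measure only the spread between these libraries.

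Mitochondrial DNA is a small circle that is transcribed on both strands into long precursor RNAs. The mRNAs and rRNAs lie end to end between tRNAs, and excision of the tRNAs by RNase P and ELAC2 sets the other RNAs free. The mRNAs code for core subunits of respiratory complexes I, III and IV and of ATP synthase, and all other subunits, like the whole transcription and RNA processing apparatus, come from nuclear genes. Genes of 1 strand thus share a precursor, and their levels also depend on how each RNA is cut, polyadenylated and degraded.

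Library totals ran from 38624292 to 46318311 counts. Of all features, 27514 passed the expression filter, and in edgeR's quasi-likelihood test 43.7% of them had an adjusted p under 0.05, 22.1% higher and 21.5% lower in Sev. The higher and lower calls numbered 6094 and 5920 with TMM scaling and 4665 and 7502 when libraries were scaled by their totals only, which moved the median log2 fold change of all features from -0.0056 to -0.15. The 8 glioma and astroglial markers were all above 10 CPM (TMM-normalized counts scaled to a common library size, as edgeR gives them), led by VIM, and summed to 8828 to 9713 CPM in control and 10155 to 11035 CPM in Sev. The summed leukocyte markers were at 3.53 to 6.03 CPM in control and 8.56 to 10.6 CPM in Sev with CD3E at 0 in every library. The summed neuron markers were at 16.3 to 18.2 CPM in control and 22.6 to 24.9 CPM in Sev, led by SYT1, and the summed blood markers at 0.151 to 0.185 and 1.38 to 1.67 CPM, so these 3 sums, like that of the glioma and astroglial markers, were higher in Sev without overlap. The endothelial sums (7.12 to 9.21 and 7.41 to 10.4 CPM) and the oligodendrocyte sums (5.11 to 7.54 and 7.27 to 8.63 CPM) overlapped. The summed epithelial markers were at 0.293 CPM or less. Their part in the results was not tested.

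The transcripts on which the results turn are shown first, as the sense strand from GENCODE 29 on GRCh38. The 6 tRNAs that rose are given whole, so that their small size and their anticodons (in capitals) can be seen. They are the tRNAs for leucine (MT-TL1, codons UUR), tryptophan (MT-TW), serine (MT-TS1, codons UCN), histidine (MT-TH), serine (MT-TS2, codons AGY) and glutamate (MT-TE). MT-TS1 and MT-TE are encoded on the minus strand.
MT-TL1: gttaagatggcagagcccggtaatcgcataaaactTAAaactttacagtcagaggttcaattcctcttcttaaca
MT-TW: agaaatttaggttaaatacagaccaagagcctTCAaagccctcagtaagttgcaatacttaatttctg
MT-TS1: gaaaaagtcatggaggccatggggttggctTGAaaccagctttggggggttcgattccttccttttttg
MT-TH: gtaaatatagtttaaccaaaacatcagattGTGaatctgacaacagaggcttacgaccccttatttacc
MT-TS2: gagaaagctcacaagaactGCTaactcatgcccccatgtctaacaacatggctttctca
MT-TE: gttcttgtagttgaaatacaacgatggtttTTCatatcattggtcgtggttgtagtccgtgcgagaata

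The mRNAs MT-ND4L and MT-ND4 are read from 1 joined RNA. The end of the first and the start of the second are shown because they share 7 bases (in capitals), where a read belongs to both genes.
MT-ND4L end: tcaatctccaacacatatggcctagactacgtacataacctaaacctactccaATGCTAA
MT-ND4 start: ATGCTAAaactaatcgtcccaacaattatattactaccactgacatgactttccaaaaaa

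MT-CO1 has a long nuclear copy on chromosome 1, MTCO1P12, and bases 317 to 396 of both are shown because this is the window with the most differences between them. Capitals mark the 4 bases that differ.
MT-CO1: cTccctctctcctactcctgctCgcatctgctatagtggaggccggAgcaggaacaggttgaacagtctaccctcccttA
MTCO1P12: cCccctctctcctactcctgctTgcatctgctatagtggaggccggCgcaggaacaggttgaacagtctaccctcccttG

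Of the 37 transcripts, 33 passed the filter, all 13 mRNAs and 20 tRNAs. After Sev, 7 were higher, 2 were lower and 24 were not called at an adjusted p under 0.05, so 27.3% were called against 43.7% of all tested features. The 2 that fell were the mRNAs MT-CO1 and MT-ND4L, and those that rose were the mRNA MT-ND1 and the 6 tRNAs. The median log2 fold change was -0.0030 over the mRNAs and 0.35 over the 20 tRNAs, beside -0.0056 over all tested features. The study's own threshold asks for a log2 fold change beyond 1 in either direction and an unadjusted p under 0.05. It was met by MT-TW and MT-TS1 alone, 2 of 33, and by 23.5% of all tested features. The groups did not overlap in CPM for 10 of the 33, and 56.5% of all tested features had groups that did not overlap. The number higher was 3 without control replicate 3, 4 without control replicate 1 or Sev replicate 3, and 11 without control replicate 2, and the number lower was 2 or 3.

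**Figure D1:**
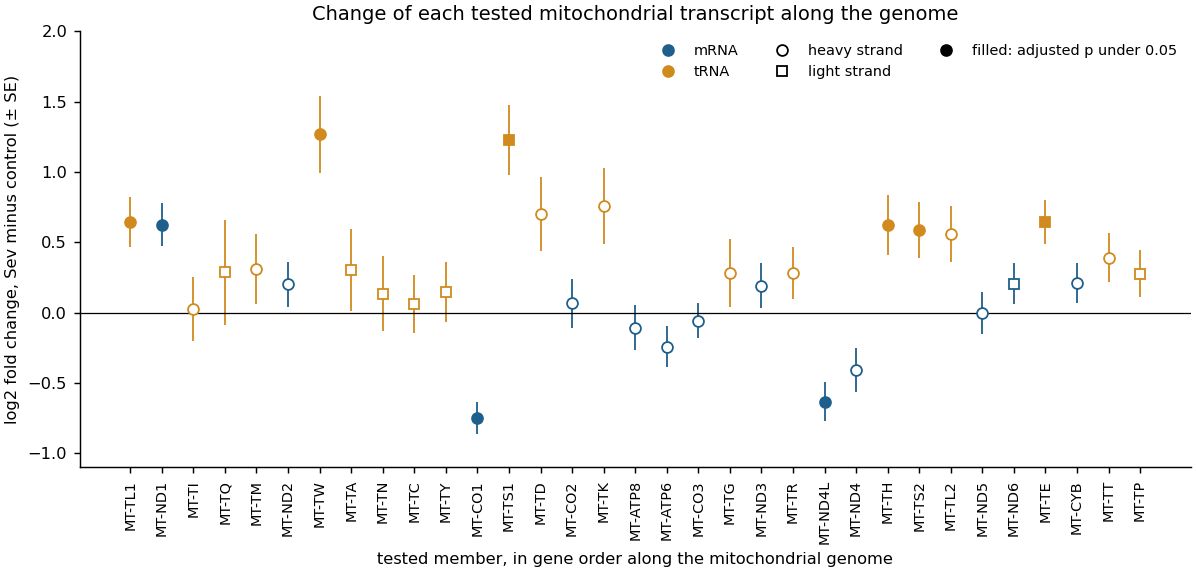
The log2 fold change of each tested transcript (Sev minus control, bars ± SE) in the order of the genes along the mitochondrial genome, circles for heavy-strand and squares for light-strand genes, blue for mRNAs and orange for tRNAs, filled where the adjusted p was under 0.05. MT-CO1 (-0.75) and MT-ND4L (-0.63) lie lowest, and all 20 tRNAs lie above 0 with this TMM scaling (MT-TI and MT-TC fall below 0 with scaling by library totals).

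The 4 transcripts outside the test were at the start of the heavy-strand genes. MT-RNR1 (chrM:648-1601) and MT-RNR2 (chrM:1671-3229), the rRNAs of the small and large mitochondrial ribosomal subunits, had 0 to 2 and 1 to 2 counts per library. MT-TV, the valine tRNA between them, had 0 counts in all 6 libraries, where 3 counts per library is the limit that a count of 0 allows. MT-TF, the phenylalanine tRNA before MT-RNR1, had 3 to 9 counts. The gene that follows these 4 and MT-TL1 is MT-ND1, with 41112 to 67440 counts. Ribosomal RNA was depleted from the RNA before the libraries were made, so neither the rRNA level nor the ratio of rRNA to mRNA can be read from these data. The rRNA genes of the nuclear genome that were listed summed to 17.9 to 25.4 CPM in control and 24.1 to 30.3 CPM in Sev.

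MT-CO1 codes for the catalytic core subunit of cytochrome c oxidase (complex IV) and had the highest level of the 33 tested mitochondrial transcripts in both groups. It lies at chrM:5904-7445 on the plus strand and is read through without introns, like all mitochondrial genes. Its level was 5866, 5667 and 4813 CPM in the control libraries and 2959, 3406 and 3361 CPM in the Sev libraries. Every Sev library was below every control library. The mean went from 5448 ± 559 to 3242 ± 246 CPM (SD, n = 3), a log2 fold change of -0.75 ± 0.11 (SE), with an edgeR adjusted p of 0.0017. The call held in 6 of 6 fits that left out 1 library. Under a scaling in which the 13 mitochondrial mRNAs together are held level, MT-CO1 was the only member still called lower.

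MT-ND4L, a membrane subunit of complex I (chrM:10470-10766), was the other transcript that fell. It measured 563, 553 and 411 CPM in control and 289, 350 and 345 CPM in Sev, again without overlap. The log2 fold change was -0.63 ± 0.14 (SE) with an edgeR adjusted p of 0.0080, and the call held in 6 of 6 fits without 1 library. Scaled to the mitochondrial mRNAs its edgeR adjusted p was 0.081. MT-ND4 (chrM:10760-12137), the complex I subunit read from the same joined RNA, was at 2009, 2141 and 1480 CPM in control and 1224, 1546 and 1476 CPM in Sev. The groups of MT-ND4 overlapped through control replicate 3, and its log2 fold change of -0.41 ± 0.16 (SE) had an edgeR adjusted p of 0.066. Without control replicate 3 the adjusted p of MT-ND4 in edgeR was 0.018, with scaling by library totals it was also 0.018, and DESeq2 gave 0.048. The ratio of MT-ND4L to MT-ND4 counts was 0.280, 0.258 and 0.278 in control and 0.236, 0.226 and 0.234 in Sev, so within their joined RNA the share of reads on MT-ND4L was lower in every Sev library.

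MT-ND1, the complex I subunit next to the quinone site, was the only mRNA that rose. It lies at chrM:3307-4262, directly after the rRNAs and MT-TL1. Its level was 1012, 1266 and 847 CPM in control and 1440, 1795 and 1588 CPM in Sev, with no overlap. The log2 fold change was 0.63 ± 0.16 (SE) with an edgeR adjusted p of 0.014, and the call held in 6 of 6 fits without 1 library. On the deposited FPKM values (fragments scaled to transcript length and library depth), limma gave a smaller change of 0.50 with an adjusted p of 0.054, which ends the call.

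The other 9 mRNAs besides MT-ND4 were not called, and their groups overlapped. They are MT-ND2, MT-ND3, MT-ND5 and MT-ND6 of complex I, MT-CYB of complex III, MT-CO2 and MT-CO3 of complex IV, and MT-ATP6 and MT-ATP8 of ATP synthase. Their log2 fold changes ran from -0.24 for MT-ATP6 (edgeR adjusted p = 0.22) to 0.21 for MT-CYB (edgeR adjusted p = 0.26). MT-ND6, the single mRNA of the light strand, had 331, 377 and 277 CPM in control and 327, 443 and 365 CPM in Sev, a log2 fold change of 0.21 ± 0.15 (SE) with an edgeR adjusted p of 0.29. By complex, 1 of the 7 complex I mRNAs was higher and 1 lower, 1 of the 3 complex IV mRNAs was lower, and neither the complex III mRNA nor the 2 ATP synthase mRNAs were called.

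**Figure D2:**
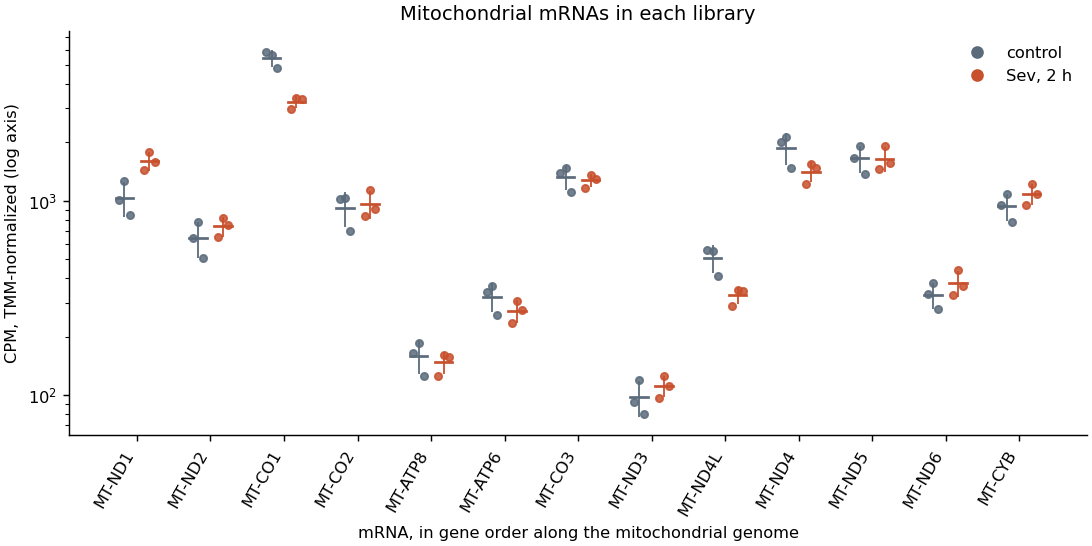
The CPM (TMM-normalized, log axis) of the 13 mitochondrial mRNAs in gene order, a point for each library, with the mean (horizontal line) and SD (vertical line) of control in grey and Sev in orange. The 3 Sev libraries lie below all controls for MT-CO1 and MT-ND4L and above all controls for MT-ND1.

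Compared per length, by the deposited FPKM, the order of the mRNAs differed between the groups. MT-CO1 was at the top of both, at 3004 ± 336 FPKM in control and 1617 ± 129 FPKM in Sev (SD, n = 3), and its libraries did not overlap with those of the next gene in either group. MT-ND4L was the second of the control order at 1460 ± 252 FPKM and the fifth of the Sev order at 851 ± 90.3 FPKM, but it was above MT-CO3 in only 1 of 3 control libraries. The shortest genes, MT-ATP8 (207 bases) and MT-ND4L (297 bases), come near the average fragment length of 200 nt. Whether this raised their FPKM was not tested. MT-ND1 moved from the sixth place at 925 ± 178 FPKM to the second at 1292 ± 120 FPKM, ahead of MT-CO3 in 3 of 3 Sev libraries although their ranges overlapped. MT-CO3 held the third place in both groups, at 1439 ± 210 and 1251 ± 86.5 FPKM. MT-ND3 was the lowest in both groups, at 240 ± 47.6 FPKM in control and 249 ± 28.0 FPKM in Sev. Between the top and the lowest gene, neighbours in the control order overlapped in range except at the step from MT-ATP6 to MT-ND3. Neighbours in the Sev order overlapped except at the steps from MT-CO2 to MT-ND4L and from MT-ND2 to MT-ATP6. The places of MT-ATP6 and MT-ND2 depend on how reads that match nuclear copies were counted. Copies held 39.1% (control) and 42.7% (Sev) of the summed counts of MT-ATP6 and its copies. For MT-ND2 they held 18.8% and 17.9%.

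Shares of the mRNA pool do not depend on how libraries are scaled against each other. MT-CO1 held 36.5%, 33.4% and 37.7% of the counts of the 13 mRNAs in control and 25.1%, 23.3% and 25.3% in Sev. MT-ND1 held 6.30%, 7.46% and 6.63% in control and 12.2%, 12.3% and 11.9% in Sev. The spread within a group was small beside both differences. In all, the share of 11 of the 13 mRNAs did not overlap between the groups, 8 higher and 3 lower in Sev, the lower ones being MT-CO1, MT-ND4L and MT-ND4. MT-ATP8 and MT-ATP6 overlapped. Because the shares add up to the whole, a lower share of MT-CO1 raises those of the other mRNAs, and no test was made on them. The ratio of a pair of genes does not depend on the others. MT-CO1 had 4.21, 3.83 and 4.34 counts for each count of MT-CO3 in control and 2.52, 2.50 and 2.60 in Sev. The genes for both subunits belong to complex IV, and MT-CO3 itself was not called (log2 fold change -0.058, edgeR adjusted p = 0.73).

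**Figure D3:**
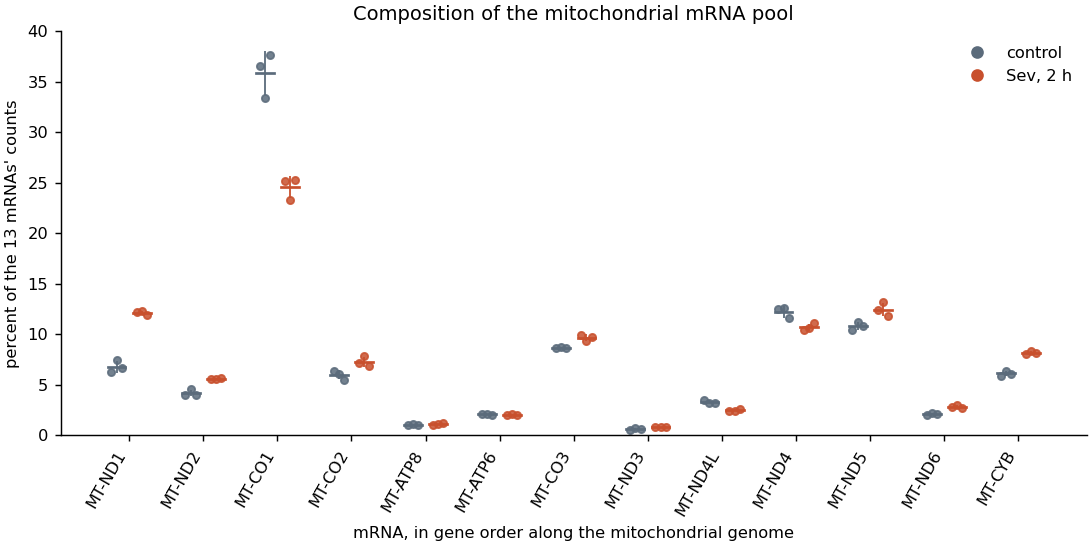
Share of each mitochondrial mRNA in the summed counts of the 13 mRNAs (percent), a point for each library, with mean and SD lines, control in grey and Sev in orange. The mean share of MT-CO1 was 35.9% in control and 24.6% in Sev, and that of MT-ND1 was 6.80% and 12.2%.

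Of the 20 tested tRNAs, 6 rose and 14 were not called. All 20 had a positive log2 fold change with TMM scaling, from 0.027 for MT-TI, the isoleucine tRNA, to 1.27 for MT-TW, and 18 of the 20 with scaling by library totals, where MT-TI and MT-TC were below 0. The share higher in edgeR was 30.0% against a background of 22.1% higher among all tested features. The number lower was 0 in edgeR, 0 at an unadjusted p under 0.05 and 0 in DESeq2. The medians were 0.57 over the 12 heavy-strand and 0.28 over the 8 light-strand tRNAs tested. Under scaling by library totals 4 were called higher and under scaling to the mitochondrial mRNAs 9. The tested tRNAs had 17 to 914 counts per library, against 3665 to 248129 for the mRNAs.

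MT-TW, the tryptophan tRNA between MT-ND2 and the light-strand tRNA MT-TA (chrM:5512-5579), had 1.09, 1.49 and 0.824 CPM in control and 2.26, 3.30 and 2.60 CPM in Sev. Its log2 fold change was 1.27 ± 0.27 (SE) with an edgeR adjusted p of 0.0075. MT-TS1, the serine tRNA on the minus strand directly after MT-CO1 (chrM:7446-7514), had 0.496, 0.681 and 0.536 CPM in control and 1.17, 1.36 and 1.49 CPM in Sev. The groups of both tRNAs were apart, and both calls held in 6 of 6 fits without 1 library. The log2 fold change of MT-TS1 was 1.23 ± 0.25 (SE) with an edgeR adjusted p of 0.0059. These are low values, with 21 to 59 counts of MT-TS1 per library. MT-TS1 and MT-CO1 are neighbours on opposite strands.

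MT-TE, the glutamate tRNA beside MT-ND6 on the minus strand (chrM:14674-14742), had 7.23, 8.30 and 6.47 CPM in control and 10.3, 13.2 and 10.9 CPM in Sev. Its log2 fold change was 0.65 ± 0.16 (SE) with an edgeR adjusted p of 0.012, and 5 of 6 fits without 1 library called it, the exception being the fit without control replicate 3 (edgeR adjusted p = 0.051). MT-TL1, the leucine tRNA directly before MT-ND1 (chrM:3230-3304), had 10.9, 13.5 and 8.38 CPM in control and 15.9, 17.5 and 18.0 CPM in Sev. Again no Sev library was as low as a control library for either tRNA. The log2 fold change of MT-TL1 was 0.65 ± 0.18 (SE) with an edgeR adjusted p of 0.020, and the call was lost without Sev replicate 3, control replicate 1 or control replicate 3, at 0.052 to 0.061. It was also lost in limma on log2(FPKM + 1) without a filter (adjusted p = 0.081). MT-TL1 and MT-ND1 are neighbours, 2 bases apart, and their log2 fold changes were 0.65 and 0.63.

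MT-TH and MT-TS2, tRNAs for histidine and serine, lie in a run after MT-ND4 with MT-TL2, the second leucine tRNA (chrM:12138-12336 for the 3 genes). MT-TH had 11.1, 16.9 and 10.9 CPM in control and 16.9, 24.3 and 18.7 CPM in Sev. MT-TS2 had 8.51, 12.4 and 8.30 CPM in control and 12.5, 17.6 and 13.7 CPM in Sev. The groups of MT-TH overlapped and those of MT-TS2 barely did not. Their log2 fold changes were 0.62 ± 0.21 and 0.59 ± 0.20 (SE) with edgeR adjusted p of 0.045 and 0.047, and each was called in only 1 of 6 fits without 1 library, that without control replicate 2. Both calls were also lost in edgeR with scaling by library totals (adjusted p = 0.082 and 0.091) and without the expression filter (0.078 and 0.080), and in limma on log2(FPKM + 1) (0.073 and 0.072). The third tRNA of the run, MT-TL2, had a log2 fold change of 0.56 with an edgeR adjusted p of 0.053. DESeq2 called MT-TL2 higher (adjusted p = 0.030), as did edgeR with the replicate number as a block (0.023). With scaling by library totals edgeR did not (adjusted p = 0.11). Upstream of the run, MT-ND4 was at -0.41, and downstream of it MT-ND5 was at -0.0030.

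Of the other tRNAs, MT-TK for lysine (log2 fold change 0.76, edgeR adjusted p = 0.052) and MT-TD for aspartate (0.70, edgeR adjusted p = 0.062) had groups that did not overlap but were not called. With the replicate number as a block edgeR called both higher (adjusted p = 0.034 and 0.031), and with scaling by library totals neither (0.089 and 0.11). DESeq2 called MT-TK (adjusted p = 0.044) and not MT-TD (0.061). The light-strand cluster between MT-TW and MT-CO1, MT-TA, MT-TN, MT-TC and MT-TY for alanine, asparagine, cysteine and tyrosine, ranged from 0.060 to 0.31, none called. MT-TI, MT-TQ, MT-TM, MT-TG, MT-TR, MT-TT and MT-TP for isoleucine, glutamine, methionine, glycine, arginine, threonine and proline ranged from 0.027 to 0.39, none called. MT-TI and MT-TQ lie on opposite strands and overlap by 3 bases, and MT-TC and MT-TY overlap by 1.

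Summed, the tRNAs had 6.81, 8.86 and 7.77 counts for each 1000 mRNA counts in control and 12.02, 12.75 and 12.41 in Sev, with no overlap between the groups. Against the 12 mRNAs other than MT-CO1 they had 10.7, 13.3 and 12.5 in control and 16.1, 16.6 and 16.6 in Sev, also without overlap, and the ratio of the Sev to the control mean was 1.35 in place of 1.59. The tRNA sum itself, which does not hold MT-CO1, was 109, 150 and 99.3 CPM in control and 141, 186 and 165 CPM in Sev, where control replicate 2 was above Sev replicate 1. tRNA genes here are 59 to 75 bases long, and the RNA was fragmented to an average of 200 nt, so counts from mature tRNAs and from uncut precursors cannot be told apart. Among the 225 tested features outside the mitochondrial genome with an exon length of 50 to 100 bases, 21 were higher and 26 lower. Both are smaller parts than the 22.1% higher and 21.5% lower of all tested features. The median log2 fold change of the 225 was -0.050. Whether length bears on the tRNA values was not tested.

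The whole mitochondrial genome took 1.74%, 1.76% and 1.35% of the library counts in control and 1.13%, 1.35% and 1.33% in Sev. The groups overlapped, since control replicate 3 lay just below Sev replicate 2. The mean was 1.61% ± 0.23 in control and 1.27% ± 0.12 in Sev (SD, n = 3), and without control replicate 3 the control mean was 1.75%. The mRNAs alone took 1.72%, 1.74% and 1.340% in control and 1.12%, 1.338% and 1.31% in Sev, where the groups did not overlap, control replicate 3 and Sev replicate 2 lying next to each other. With TMM scaling the summed mRNAs were at 15269 ± 2201 and 13222 ± 1414 CPM, overlapping, and without MT-CO1 at 9820 ± 1696 and 9979 ± 1190 CPM. Outside MT-CO1, the mRNA totals of the groups differed by less than the spread between libraries. A share of library counts does not measure transcripts per cell. In bulk libraries, a change per cell and a change in the cells that carry the transcripts cannot be told apart. With 3 libraries against 3, an exact permutation test cannot go below 0.1, and none is given for these sums.

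By strand, the heavy-strand genes took 1.70%, 1.71% and 1.32% of library counts in control and 1.10%, 1.31% and 1.29% in Sev, without overlap, though with TMM scaling their sums overlapped. The light-strand genes took 0.0388%, 0.0425% and 0.0317% of library counts in control and 0.0342%, 0.0444% and 0.0401% in Sev, overlapping. MT-ND6 had 21.0, 22.7 and 22.1 counts for each 1000 counts of the 12 heavy-strand mRNAs in control and 28.5, 31.3 and 28.2 in Sev, without overlap. That denominator holds MT-CO1. Against the other 11 heavy-strand mRNAs the values were 33.6, 34.5 and 36.0 in control and 38.5, 41.2 and 38.2 in Sev, still without overlap, but the ratio of the Sev to the control mean was 1.13 in place of 1.34. Light-strand tRNAs per 1000 MT-ND6 counts were 92.1, 99.7 and 92.7 in control and 103, 94.6 and 115 in Sev, so within the light strand the groups overlapped. The libraries were strand-specific, but the strand setting of the counting is not given in the sources used here, and strand values rest on it.

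**Figure D4:**
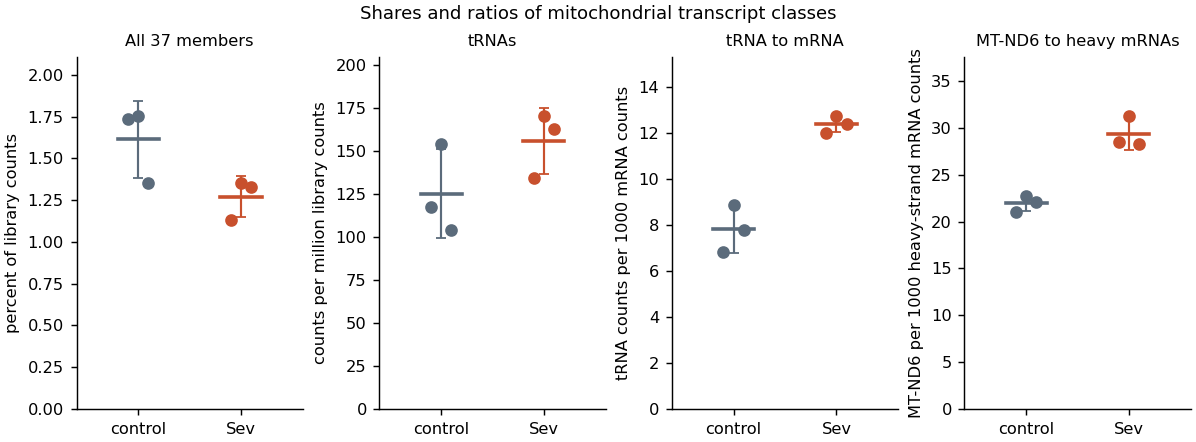
From left to right, all 37 transcripts as percent of library counts, tRNA counts scaled to the library total, tRNA counts per 1000 mRNA counts, and MT-ND6 counts per 1000 heavy-strand mRNA counts, a point for each library with mean and SD, axes from 0. The groups overlap in the shares on the left and are apart in the ratios on the right (means 7.82 and 12.4 for tRNA to mRNA).

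The nuclear genome holds copies of mitochondrial genes, and how reads that match both were counted is not given in the sources used here. Of 404 listed copies, 208 had counts and 60 passed the filter, 7 higher and 9 lower in Sev, so 26.7% were called against 43.7% of all tested features. MTCO1P12 (chr1:631074-632616) is 98.6% identical to MT-CO1 over 1543 aligned positions, with 21 that differ. It had 343, 309 and 295 CPM in control and 206, 217 and 222 CPM in Sev, a log2 fold change of -0.55 ± 0.084 (SE) with an edgeR adjusted p of 0.0017. Both MT-CO1 and this copy were thus lower in all Sev libraries. The copies together held 5.72% of the MT-CO1 sum in control and 6.47% in Sev. For MT-ATP6 they held 39.1% and 42.7%, nearly all in MTATP6P1, whose log2 fold change was -0.018 (edgeR adjusted p = 0.93), and for MT-ND2 18.8% and 17.9%, led by MTND2P28 at 0.13 (edgeR adjusted p = 0.52). MTND4P12, a copy of MT-ND4 on chromosome 5, was at 0.030 (edgeR adjusted p = 0.89), and the copies of MT-ND1 held 2.08% and 1.72%. With the counts of all copies added to their gene, an alternative chosen after seeing the data, MT-CO1 was at -0.74 with an edgeR adjusted p of 0.0017, and the members called were still 7 higher and 2 lower. MT-ATP6 moved from -0.24 to -0.15 and stayed uncalled (edgeR adjusted p = 0.42).

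Nuclear genes that serve the mitochondrial genome were read from 5 lists of 153 genes in all, 51 higher, 19 lower and 83 not called, 33.3% higher and 12.4% lower beside 22.1% and 21.5% of all tested features. With scaling by library totals the count higher was 22 and the count lower 27. The list of transcription and replication of mitochondrial DNA had 4 higher and 5 lower of 19 (21.1% and 26.3%, median log2 fold change -0.17). TFAM, which packages mitochondrial DNA and starts its transcription, rose from 44.4 ± 4.22 to 73.1 ± 8.99 CPM (SD, n = 3), a log2 fold change of 0.72 (edgeR adjusted p = 0.0023). TFB2M, the other initiation factor, rose from 7.77 ± 0.817 to 18.0 ± 0.486 CPM (1.21, edgeR adjusted p = 0.00035). MTERF2, a member of the mitochondrial termination factor family, fell from 11.6 ± 0.337 to 5.07 ± 1.151 CPM (-1.20, edgeR adjusted p = 0.0015). RNASEH1, which removes RNA primers from DNA, rose from 77.5 ± 5.87 to 122 ± 10.6 CPM (0.65, edgeR adjusted p = 0.0016). The polymerase itself, POLRMT, named after its value was seen, was at 62.0 ± 2.46 and 52.5 ± 3.51 CPM and was not called (-0.24, edgeR adjusted p = 0.052), though scaling by library totals called it lower (edgeR adjusted p = 0.0063).

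Cleavage and modification of mitochondrial RNA had 9 higher and 8 lower of 29 (median 0.072). These are 31.0% and 27.6%, beside 22.1% and 21.5% of all tested features. FASTKD5, needed to cut the mRNA ends that no tRNA marks, rose from 17.05 ± 1.33 to 31.8 ± 1.95 CPM (0.90, edgeR adjusted p = 0.00057). The pseudouridine synthase genes PUS1 and TRUB2 rose by 0.75 and 0.70 on the log2 scale (edgeR adjusted p = 0.0011 and 0.00058). METTL15, a methyltransferase of the small ribosomal subunit's rRNA, fell from 18.3 ± 2.80 to 5.59 ± 0.423 CPM, the lowest log2 fold change of the 153 genes (-1.71, edgeR adjusted p = 0.00020). Of the enzymes that cut tRNAs out of the precursor, named after their values were seen, TRMT10C of RNase P rose from 9.43 ± 1.04 to 15.6 ± 1.152 CPM (0.73, edgeR adjusted p = 0.0035). Its partners HSD17B10 (0.29, edgeR adjusted p = 0.056) and PRORP (-0.070, edgeR adjusted p = 0.72) and the 3' end nuclease ELAC2 (0.070, edgeR adjusted p = 0.47) were not called.

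Stability, polyadenylation and decay had 9 higher and 3 lower of 19 (median 0.25), or 47.4% and 15.8% beside 22.1% and 21.5% of all tested features. Of the 9, only MTPAP, SUPV3L1 and DHX30 stayed higher with scaling by library totals, and only they held in 6 of 6 fits without 1 library. That scaling also called FASTKD2 and PTCD3 lower (edgeR adjusted p = 0.021 and 0.0094). The lower call of ANGEL2 held in 0 of 6 fits. FASTKD2, PTCD3 and ANGEL2 were named after their values were seen. FASTKD1 fell from 14.995 ± 1.63 to 6.04 ± 0.805 CPM (-1.31, edgeR adjusted p = 0.00055). It belongs to a family of mitochondrial RNA-binding proteins and is known for an effect on MT-ND3 mRNA, which here was at a log2 fold change of 0.19 (edgeR adjusted p = 0.36). MTPAP, the mitochondrial poly(A) polymerase, rose by 0.58, the helicase SUPV3L1 of the RNA degradosome by 0.60 and the ribosome assembly helicase DHX30 by 0.59 on the log2 scale (edgeR adjusted p = 0.0056, 0.0021 and 0.00070). Regulators of biogenesis had 3 higher and 1 lower of 11 (median 0.29), or 27.3% and 9.09%. The share called either way was 36.4%, below the 43.7% of all tested features. PPRC1, a coactivator of the PGC-1 family, rose from 67.4 ± 5.57 to 148 ± 6.03 CPM (1.13, edgeR adjusted p = 0.00013), and the transcription factor genes NRF1 and GABPB1 rose by 0.53 and 0.94 on the log2 scale (edgeR adjusted p = 0.0018 and 0.0028). CREB1 fell from 31.6 ± 3.96 to 16.8 ± 0.518 CPM (-0.91, edgeR adjusted p = 0.00078).

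The nuclear subunits of the complexes that also hold mitochondrial subunits had 26 higher and 2 lower of 75 (median 0.23, and 0.090 with scaling by library totals). These are 34.7% and 2.67%, beside 22.1% higher and 21.5% lower of all tested features. The share called either way was 29.7% for complex I, 55.6% for complex III, 63.6% for complex IV and 27.8% for ATP synthase. It was 37.3% over the 75 genes and 43.7% over all tested features. For complex I, 9 of 37 were higher and 2 lower, with NDUFV2 at a log2 fold change of 0.47 (edgeR adjusted p = 0.0040). For complex III, 5 of 9 were higher and 0 lower, among them UQCRFS1 (0.62, edgeR adjusted p = 0.0016) and CYC1 (0.49, edgeR adjusted p = 0.0023). For complex IV, 7 of 11 were higher and 0 lower, and for the mitochondrial subunit genes MT-CO1 was lower and MT-CO2 and MT-CO3 were not called. The complex IV count rests on the scaling and on single libraries, since with scaling by library totals 0 of 11 were higher and COX7C was lower (-0.41, edgeR adjusted p = 0.015), and 1 of the 7, COX7A2, was called in 6 of 6 fits without 1 library. These genes were named after their values were seen. For ATP synthase, 5 of 18 were higher and 0 lower, with ATP5F1B going from 280 ± 19.4 to 365 ± 16.8 CPM (0.38, edgeR adjusted p = 0.0078). In complexes III, IV and ATP synthase, the number lower was also 0 at an unadjusted p under 0.05 and 0 in DESeq2, but with scaling by library totals COX7C and, for ATP synthase, ATP5PD (-0.27, edgeR adjusted p = 0.029) were lower. Over all 27514 tested features that scaling called 4665 higher and 7502 lower. It left 2 higher and 5 lower for complex I, 3 higher for complex III and 1 higher for ATP synthase. Of the genes called higher, 5 of 9 for complex I, 3 of 5 for complex III and 1 of 5 for ATP synthase were called in 6 of 6 fits without 1 library, so the ATP synthase count, like that of complex IV, rests on single libraries. The named nuclear genes, apart from those named after their values were seen, held in all 6 such fits.

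**Figure D5:**
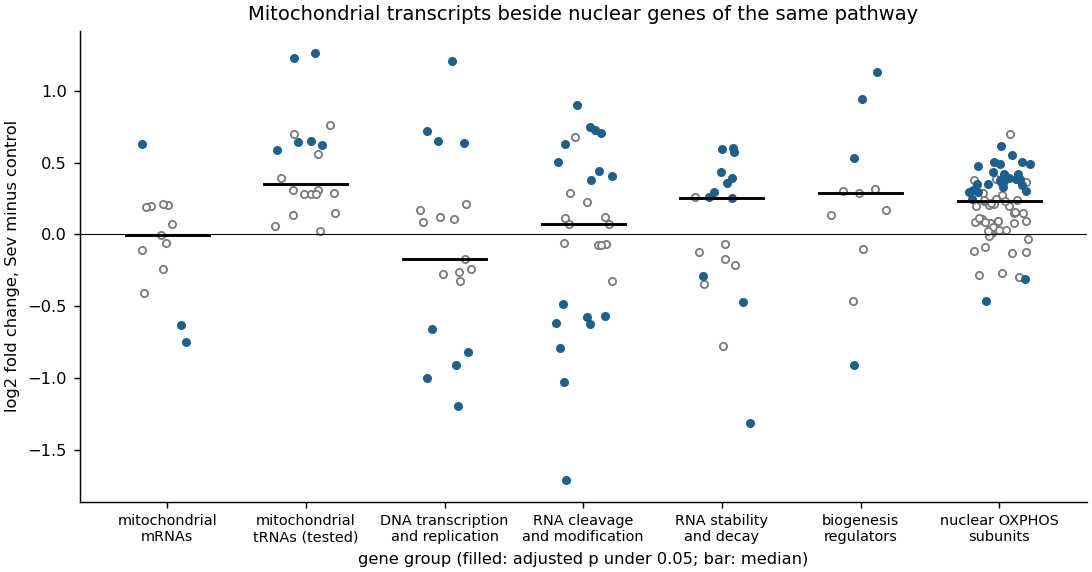
The log2 fold change (Sev minus control) of each mitochondrial mRNA and tested tRNA beside the nuclear genes of 5 lists, filled where the adjusted p was under 0.05, with the median as a bar. The bars lie at -0.0030 for the mRNAs, 0.35 for the tRNAs and 0.23 for the nuclear subunits.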

How the data were processed

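The authors deposited counts per feature, not normalized, and FPKM values, for 3 control and 3 Sev libraries of U251 cells. RNA was depleted of ribosomal RNA and sequenced with strand-specific adapters. The submitters' processing notes name bcl2fastq 2.19, featureCounts and hg18 without a role. The identifiers match GENCODE 29, so positions, strands and sequences came from it on GRCh38. The aligner and the handling of reads that match several genes are not given in the sources used here.

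For the deposited counts edgeR 4.0.16 was run in R 4.3.3 (filterByExpr, TMM, glmQLFit, glmQLFTest, 2 groups, no covariate, Benjamini-Hochberg over 27514 features, limit 0.05). Standard errors were derived from the F statistic, as the size of the log2 fold change over the root of F. CPM holds no prior count. DESeq2 1.42.0 on the counts and limma 3.58.1 on log2(FPKM + 1) or log2(FPKM + 0.1), with FPKM of at least 0.5 in 3 libraries or no filter, were alternatives, beside other scalings, filters, a replicate block and fits without 1 library. Fold changes on that scale understate those of low genes. The script was tested on simulated data. All 37 transcripts are named. From each nuclear list the up to 4 called genes with the smallest p are named, and of the nuclear copies the 4 with the most counts. The members and lists were chosen with earlier results of these data known. Replicates of a group differed by more than counting noise in 47.6% to 64.5% of 15896 genes. Library totals were 38624292 to 46318311 counts, and each group holds 3 libraries.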

Additional observations from a re-analysis of the deposited data

How the results depend on the processing

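MT-CO1 and MT-TS1, MT-TW and MT-TE were called in the same direction under every alternative of scaling, test and filter run on all 6 libraries. The 9 called transcripts kept their call in 93 of 108 such results, lost it in 15 and reversed in 0, and in fits without 1 library they kept it in 40 of 54. Transcripts called higher numbered 7, 8 with DESeq2 size factors, 9 with DESeq2, 5 without an expression filter, and 4, 4 and 3 with limma on log2(FPKM + 1), on log2(FPKM + 0.1) and without a filter. In fits without 1 library they numbered 3 to 11. Transcripts called lower numbered 2, then 1 when scaled to the 13 mitochondrial mRNAs, and 3 with scaling by library totals, with DESeq2, with limma at either pseudocount on filtered features and without control replicate 3. All tested features higher numbered 6094, and 3676 and 3623 with limma at the pseudocounts 1 and 0.1. Nuclear list genes higher numbered 51, then 22 with scaling by library totals, 25, 25 and 17 with limma, and 28 to 49 without 1 library, and those lower 12 to 18 without 1 library.

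Uncalled transcripts changed sign as follows, with the cause not tested. With scaling by library totals MT-TI was at -0.11, MT-TC at -0.081 and MT-CO2 at -0.077. With limma at pseudocounts 1 and 0.1 MT-TI was at -0.081 and -0.082, MT-TN at -0.0093 and -0.0095, MT-TC at -0.076 and -0.077, and MT-CO2 at -0.066. Scaled to the mitochondrial mRNAs MT-ATP8 was at 0.11, MT-CO3 at 0.15 and MT-ND5 at 0.20, and MT-ND5 was at 0.011 with DESeq2 size factors and 0.00069 in DESeq2. Without 1 library the ranges were -0.12 to 0.29 for MT-TI, -0.043 to 0.37 for MT-TN, -0.064 to 0.25 for MT-TC, -0.041 to 0.28 for MT-TY, -0.097 to 0.16 for MT-CO2, -0.26 to 0.016 for MT-ATP8, -0.18 to 0.020 for MT-CO3 and -0.12 to 0.11 for MT-ND5.

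The mitochondrial share was 4.58% in control and 3.56% in Sev of summed FPKM, and 1.76% in control and 1.40% in Sev without the 10 most abundant other features, beside 1.61% and 1.27%. MT-CO1 was 23.3% and 15.4% of the mRNAs' FPKM, which divides by length. Replicate numbers are shared by the groups, but over all tested features same-numbered libraries did not deviate together (correlations -0.0072, 0.0035 and 0.027). Correlations over all features cannot show whether part of the genes were paired. With the replicate block 10 transcripts were higher and 2 lower, against 7 and 2 without it.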
